A study of Mus musculus with 6 samples.

Results

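The activity-regulated immediate early genes are a small set of genes that neurons switch on within minutes of synaptic input, before any new protein is made. Calcium entry and the kinases downstream of it act on transcription factors that already sit at these genes, among them CREB at the cAMP response element (CRE), SRF at the CArG box and the MEF2 factors. In the dentate gyrus, where few granule neurons fire at any time, their products mark the neurons that took part in a recent experience. Most of them encode transcription factors that start a later wave of genes, and Arc encodes a protein that acts at synapses.

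The set described here comprised 10 genes: Npas4, Fos, Fosb, Junb, Arc, Egr1, Egr2, Egr3, Nr4a1 and Nr4a2. Each gene comprised every measured cytosine from 1 kb upstream of its start to its end in the GENCODE M21 gene records (mm10, that is GRCm38), following the gene's strand. All 10 were covered, of 25544 annotated genes with at least 1 covered site, and they held 1102 of the 890041 sites. The sites belonged to 904 CpGs, since the cytosines on the plus and minus strands of a CpG were separate sites, and to 142 fragments cut by MspI, the enzyme of the assay.

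The assay was RRBS (reduced representation bisulfite sequencing), run on dentate gyrus dissected from female C57BL/6JRj mice aged 4.5 months. The 3 STD mice lived in standard cages, and the 3 ENR mice lived in an enriched environment, a large enclosure with tunnels and toys. Each library came from 1 mouse, the labels name no allele or agent, and the tissue was a bulk mixture of cells. A shift in methylation within a cell type and a shift in the share of that cell type therefore cannot be told apart. The titles of the libraries call both groups middle-aged. A value is the percent of reads at a site that were methylated, so a difference between groups is given in percentage points. How many reads a value rests on is not known, except that the authors set a minimum.

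Over the whole table, the mean methylation of a library lay between 22.5% and 24.3% in STD and between 21.3% and 24.2% in ENR, with replicate 3 the lowest in each group. The ENR mean was 0.502 points below the STD mean. The sites of the 10 genes were far less methylated than the table as a whole. By gene, the median level was 3.55% for the 10 and 2.96% for 43 other genes of the wider pathway. It was 10.8% over all protein-coding genes. Nr4a1, Nr4a2 and Npas4 lay above that, at percentiles 53.2, 56.0 and 58.3. Sites of the 10 genes averaged 5.86%, 5.91% and 6.27% in the 3 STD libraries and 6.59%, 6.99% and 5.78% in the 3 ENR libraries. The groups overlapped. Methylation was 0% in all 6 libraries at 492 of the 1102 sites (44.6%), against 29.8% of all sites in the table.

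The genes fell into a low and a higher group. Averaged over the 6 libraries, methylation increased in the order Junb (1.5%), Egr1 (1.76%), Fosb (2.13%), Egr2 (2.70%), Arc (3.12%), Egr3 (3.99%), Fos (4.08%), Nr4a1 (12.5%), Nr4a2 (14.2%) and Npas4 (15.6%). The step from Fos to Nr4a1 was 8.39 ± 1.38 points (SD, n = 6 libraries) and was present in 6 of 6 libraries. No other pair of neighbours in this order kept it in all libraries; Egr3 and Fos, for example, stood in this order in only 2 of 6. The level of a gene depends on which of its fragments were sequenced, and these lay at different distances from the start in different genes.

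**Figure D1:**
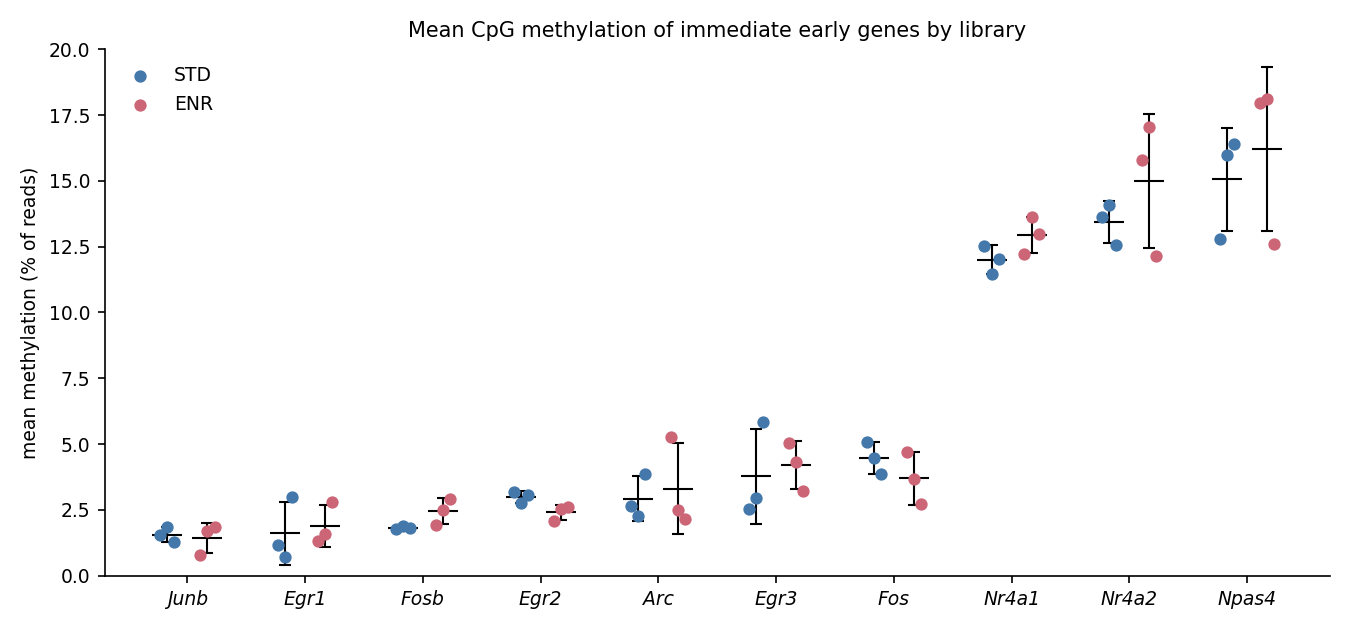
Mean methylation of each gene (percent of reads, vertical axis) in the 3 STD (blue) and 3 ENR (red) libraries, with the group mean and SD in black and genes in order of their level. The 7 lowest genes lie under 6% in every library and Nr4a1, Nr4a2 and Npas4 lie over 11% in every library, and STD and ENR points overlap in all genes but Fosb and Egr2.

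To ask whether housing was accompanied by different methylation of these genes, the mean over the sites of each gene was compared between ENR and STD with limma, fitted on all genes. None of the 10 genes passed. The adjusted p was 1.00 for each, and no gene of the genome passed in this fit (0% of 25473 genes that varied). At an unadjusted p under 0.05, limma counted 985 genes of the genome (3.87%) and none of the 10. The mean was higher in ENR in 7 genes and lower in 3, against 42.2% higher and 57.5% lower over all genes. With libraries centred it was higher in 8 and lower in 2, and with the median over sites higher in 0 and lower in 1, the other 9 being equal. The median difference was 0.403 points for the 10 genes and -0.209 for all genes. Differences between the groups ranged from -0.768 points in Fos to 1.56 in Nr4a2, and exceeded the SD of both groups in Fosb, Egr2 and Nr4a1.

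In Fosb and Egr2 the values of the groups did not overlap, which was so for 8.41% of all genes. The higher direction, as in Fosb, held for 3.09% of all genes, and the lower direction, as in Egr2, for 5.32%. A two-sided exact permutation test over the 20 ways to split the 6 libraries gave p = 0.1 for both genes, the smallest value this design allows. With each library centred on its mean over all sites, the difference was 1.13 points in Fosb and -0.0922 in Egr2, and the groups overlapped in both. Centring subtracts library means of 21.3% to 24.3% from every gene alike, and these means differ between libraries by more than either gene does, so overlap after centring follows largely from the subtracted values.

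Around the gene starts, methylation was near 0 in 9 of the 10 genes. The mean over sites within 1 kb of the gene start was between 0.506% and 2.89% in either group for these 9, and 15.1% in STD and 16.2% in ENR for Npas4. The Npas4 value lay at the 87.9th percentile of protein-coding promoters, whose median was 1.69%. It came from the same 29 sites as its gene mean, all between 492 and 945 bp downstream of the gene start. No site nearer that start or upstream of it was covered. Promoter means in ENR lay below those in STD for 6 of the 10 and above them for 4, against 52.5% below and 47% above over all promoters. With libraries centred 2 were below and 8 above, and with the median over sites 1 was below and 0 above. No promoter passed limma's adjusted threshold (0% of 20231 promoters that varied), and the smallest adjusted p among the 10 was 0.982. At an unadjusted p under 0.05 limma counted 887 promoters (4.38%), and Egr2 was the only 1 of the 10 among them. Its groups did not overlap, a state seen in 9.33% of all promoters and, with ENR lower, in 5.45%.

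**Figure D2:**
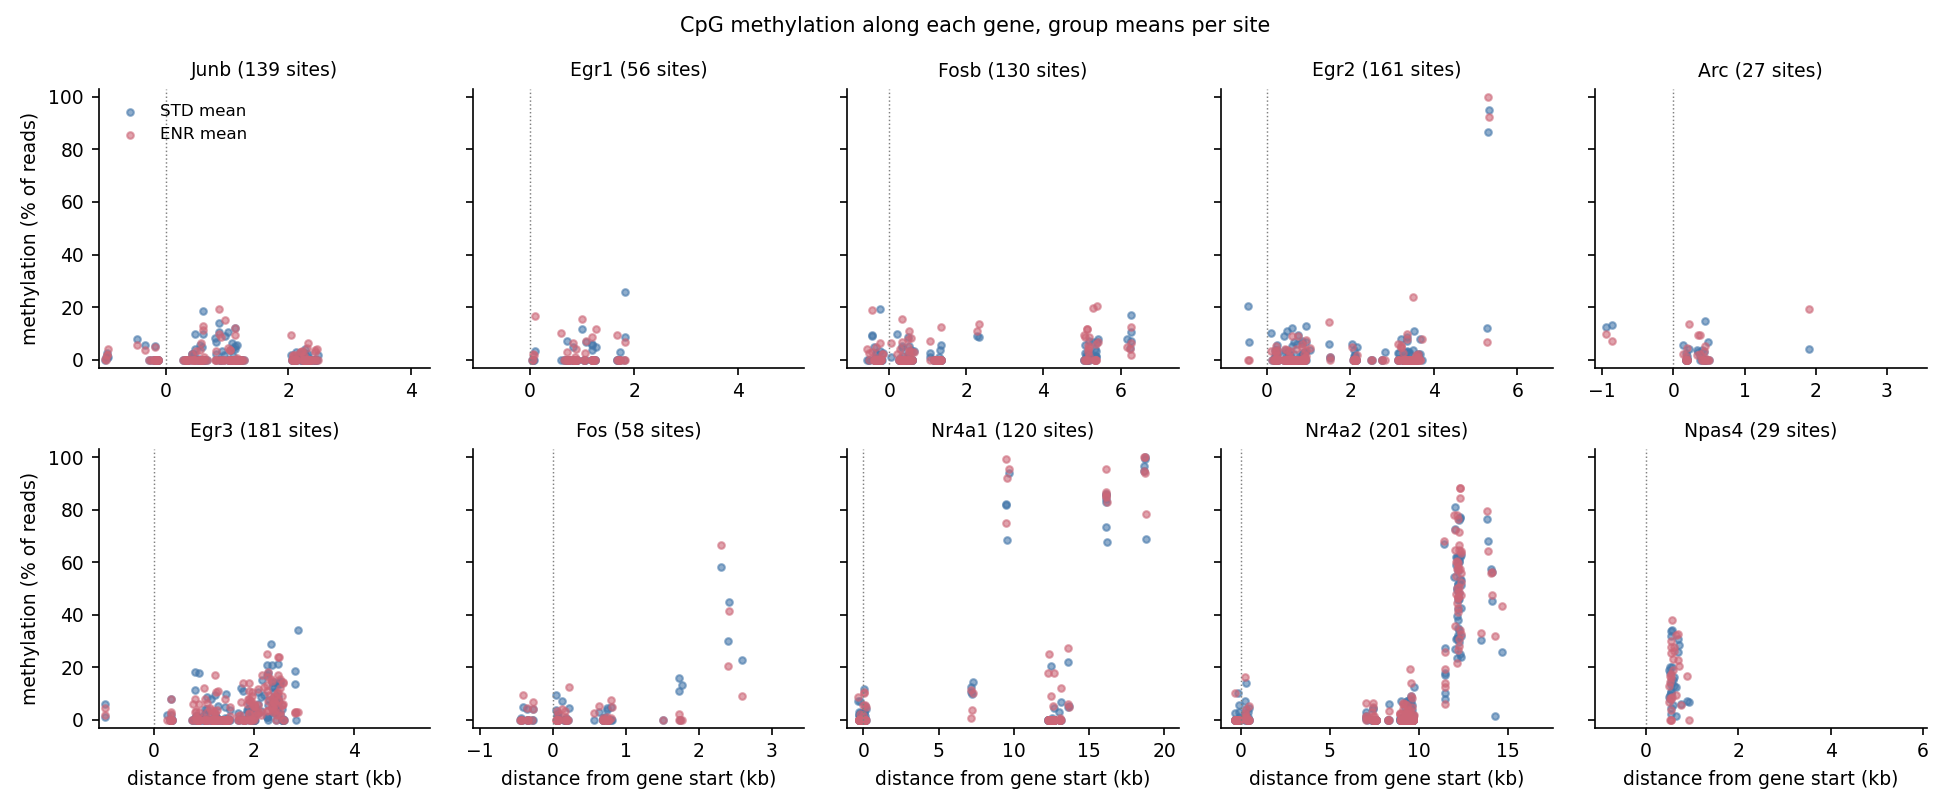
Mean methylation of each covered site (percent of reads, vertical axis) in STD (blue) and ENR (red) against the distance from the gene start in kb, with the start as a dotted line and the genes in order of their level. Sites near the starts are mostly close to 0, except in Npas4, whose covered sites all lie 492 to 945 bp downstream. The sites over 60% lie in the bodies and at the 3′ ends of Fos, Egr2, Nr4a1 and Nr4a2.

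Fos, Fosb and Junb encode subunits of AP-1, the dimeric factor that Fos and Jun proteins form on DNA, and Fosb also gives rise to the long-lived ΔFosB. Fos (chr12:85473890-85477273, plus strand) had 58 sites. Its mean was 5.07%, 4.46% and 3.87% in STD and 4.71%, 3.68% and 2.71% in ENR, a difference of -0.768 points with overlapping groups (exact permutation test, two-sided, p = 0.4). It was -1.27 without ENR replicate 1 and -0.275 without ENR replicate 3. Most of the gene was unmethylated. The exception was its 3′ end, where 4 sites between 2310 and 2593 bp from the start averaged 38.9% ± 3.66 in STD and 34.5% ± 11.8 in ENR (SD, n = 3 each). The coding site at 2310 bp was the most methylated, between 53.5% and 73.8% in every library. Within 1 kb of the gene start the 49 sites averaged 1.29% in STD and 1.52% in ENR.

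Fosb (chr7:19302696-19310051, minus strand) was 1.76%, 1.90% and 1.80% methylated in STD and 1.92%, 2.50% and 2.92% in ENR, over 130 sites. Every ENR value was above every STD value, the closest being 1.92% and 1.90%. The difference was 0.626 points, with a standard error of 0.369 in limma, and 0.390 points without ENR replicate 3. Over 1 kb from any annotated start, 31 sites were 4.15%, 3.95% and 3.88% methylated in STD and 5.10%, 4.40% and 7.49% in ENR, without overlap (exact permutation test, two-sided, p = 0.1). Within 1 kb of a start the means were 1.14% and 1.44%, and the groups overlapped. No Fosb site separated the groups, and none differed by over 25 points.

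Junb (chr8:84974484-84978718, minus strand) was the least methylated of the 10. Its 139 sites averaged 1.55%, 1.83% and 1.28% in STD and 0.776%, 1.70% and 1.84% in ENR. The ranges overlapped and the difference, -0.119 points, changed sign when STD replicate 2 (0.0204) or ENR replicate 1 (0.211) was left out. It also changed sign when libraries were centred (0.383). The 3′ end of Junb overlaps the neighbouring gene Prdx2, which encodes a peroxiredoxin, on the opposite strand, beyond the last covered site of Junb.

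Egr1, Egr2 and Egr3 encode zinc finger factors that bind a GC-rich site; Egr1 is widely used as a marker of recently active neurons, Egr2 is also known for its role in myelinating Schwann cells, and Egr3 acts in muscle spindle development and in memory. Egr1 (chr18:34859823-34864984, plus strand) had 56 sites, all downstream of the start. They averaged 1.15%, 0.725% and 2.98% in STD and 1.30%, 1.59% and 2.79% in ENR, with STD replicate 3 and ENR replicate 3 highest. The difference of 0.276 points became -0.170 both without STD replicate 2 and without ENR replicate 3. The 8 coding sites, all in 2 groups of sites read from the same fragments, were 3.04%, 2.30% and 8.70% in STD and 1.83%, 0% and 0.676% in ENR. They did not overlap between the groups (exact permutation test, p = 0.1), and the coding site at 1822 bp, 52.2% in STD replicate 3, was the highest single value.

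Egr2 (chr10:67535475-67542188, plus strand) was 3.16%, 2.75% and 3.08% methylated in STD and 2.06%, 2.52% and 2.62% in ENR, over 161 sites. Every ENR library was below every STD library. The difference was -0.594 points with a limma standard error of 0.346, and -0.0922 points once libraries were centred. Within 1 kb of the gene start, the 79 sites averaged 3.0%, 1.74% and 2.15% in STD and 0.916%, 1.21% and 0.994% in ENR. That promoter difference, -1.26 points, had an unadjusted limma p of 0.0329 and an adjusted p of 0.982. The unadjusted p was no longer under 0.05 with the replicate number as a block, around the start of any transcript (-0.639 points), with libraries centred (-0.755 points), with the median over sites (0 points), or without STD replicate 1 (-0.907 points), STD replicate 3, ENR replicate 2 or ENR replicate 3. The 2 sites upstream of the start were above 0 only in STD, with means of 20.5%, 14.6% and 5.56% against 0% in each ENR library. An intronic site 3521 bp from the start (chr10:67538996) showed 6.90%, 12% and 14.3% in STD and 0% in each ENR library, the lowest unadjusted p of any of the 1102 sites (0.00875 in limma; adjusted p = 0.852). Its neighbours did not share this: of 10 other sites within 50 bp, 1 was lower in ENR, and their mean difference was 2.01 points. Near the 3′ end, coding sites at 5304 and 5324 bp were between 76% and 100% methylated in every library, beside a site at 5270 bp with 0% in 4 libraries.

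Egr3 (chr14:70077203-70082614, plus strand) averaged 2.52%, 2.95% and 5.85% in STD and 5.05%, 4.33% and 3.22% in ENR, over 181 sites. The groups overlapped and STD replicate 3 was the highest library. In that library 12 coding sites between 2345 and 2419 bp on the minus strand, which share a fragment and strand, were high; they were 4.10%, 0.758% and 30.1% in STD and 18.5%, 2.56% and 1.11% in ENR. The gene difference of 0.429 points was 1.47 without STD replicate 3 and -0.198 without STD replicate 1. Egr3 also held the site with the largest lower value in ENR. At 2875 bp, in the 3′ untranslated part (chr14:70080078, minus strand), methylation was 26.3%, 39.3% and 37.0% in STD and 8.77%, 0% and 0% in ENR, a difference of -31.3 points (limma adjusted p = 0.852). The 6 sites in untranslated parts of Egr3, this site included, were 11.2%, 26.0% and 11.1% in STD and 6.79%, 0% and 4.40% in ENR. The groups did not overlap (exact permutation test, two-sided, p = 0.1). That separation rested on the site at 2875 bp. Over the whole gene 54 sites were lower and 66 higher in ENR. Among the higher ones, a coding site at 1964 bp was 0% in each STD library and 6.90%, 8.57% and 11.5% in ENR, and an intronic site at 1220 bp was 0%, 4.17% and 3.13% in STD and 13.6%, 23.1% and 14.7% in ENR. On the other strand of the same CpG, the difference had the same sign at 1964 bp (6.31 points) and the opposite sign at 1220 bp (-6.77 points).

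Nr4a1 and Nr4a2 encode orphan nuclear receptors that act without a known ligand; Nr4a2 (Nurr1) is also needed for midbrain dopamine neurons. Nr4a1 (chr15:101254269-101274795, plus strand) showed 12.5%, 11.5% and 12.0% in STD and 12.2%, 13.6% and 13% in ENR over 120 sites, with overlapping groups and a difference of 0.933 points (exact permutation test, two-sided, p = 0.2). The difference was 0.591 points without ENR replicate 2 and 1.87 with the mean of MspI fragment means. The mean over sites hid a gene of extremes, with 68 sites at 0% in all 6 libraries and 11 sites over 80% on average. Sites within 1 kb of the gene start averaged 1.0% in STD and 0.863% in ENR. In contrast, 9 coding sites from 16097 to 18756 bp averaged 81.4%, 79.2% and 86.1% in STD and 86.2%, 84.2% and 94.4% in ENR. These groups overlapped, with a difference of 6.05 points (exact permutation test, two-sided, p = 0.2). Intronic sites between 9476 and 9658 bp were also methylated, with group means of 68.6% to 99.2%. The site at 9476 bp was 69.8%, 79.8% and 97.0% in STD and 97.6%, 100% and 100% in ENR, higher in ENR without overlap.

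The start that RefSeq gives for Nr4a1 lies inside the GENCODE gene, 12577 bp from its start, and the sequence upstream of it was well covered. The 250 bases before it are printed because they carry 4 copies of TGACG, the core of the CRE, each with a covered CpG. The sequence is from RefSeq on GRCm38, chr15:101266596-101266845, plus strand, 5′ to 3′; capitals mark TGACG on either strand, which reads CGTCA on the opposite one.
Nr4a1 upstream: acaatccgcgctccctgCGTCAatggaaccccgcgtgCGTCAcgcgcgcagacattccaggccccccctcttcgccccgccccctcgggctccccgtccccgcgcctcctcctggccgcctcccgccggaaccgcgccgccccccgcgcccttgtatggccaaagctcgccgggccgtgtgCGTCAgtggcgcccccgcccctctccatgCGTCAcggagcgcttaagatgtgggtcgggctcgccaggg
Of its 34 CpGs, 20 were covered, and the covered sites averaged 1.07% in STD and 1.96% in ENR. All 4 TGACG copies had a site at 0% in all 6 libraries.

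Nr4a2 (chr2:57106830-57124003, minus strand) was the best covered of the 10 and had the largest difference of means over sites. With the mean of MspI fragment means, Npas4 had a larger difference (3.08 points against 2.16 in Nr4a2). Over the 201 Nr4a2 sites the mean was 13.6%, 14.1% and 12.5% in STD and 15.8%, 17% and 12.1% in ENR. ENR replicates 1 and 2 were above all STD libraries and ENR replicate 3 was below them, so the difference of 1.56 points lay within the spread (exact permutation test, two-sided, p = 0.4). Without ENR replicate 3 it was 2.99 points, and without ENR replicate 2 it was 0.541. Within 1 kb of an annotated start, 130 sites averaged 2.44% in STD and 2.43% in ENR. The other 71 sites averaged 33.5% ± 1.94 in STD and 38.0% ± 7.35 in ENR.

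Most of the intermediate values of the gene came from the coding exon 12 kb from the start. Across the 42 coding sites, means were 49.8%, 52.7% and 46.2% in STD and 58.5%, 63.0% and 45.5% in ENR, a difference of 6.12 points with overlapping groups (exact permutation test, p = 0.4). The stretch that held most of these sites is shown so that their density can be seen (GRCm38, chr2:57111603-57111863, minus strand, 5′ to 3′ along the gene; chosen after the values were known). Capitals mark CpGs with a covered site.
Nr4a2 coding exon: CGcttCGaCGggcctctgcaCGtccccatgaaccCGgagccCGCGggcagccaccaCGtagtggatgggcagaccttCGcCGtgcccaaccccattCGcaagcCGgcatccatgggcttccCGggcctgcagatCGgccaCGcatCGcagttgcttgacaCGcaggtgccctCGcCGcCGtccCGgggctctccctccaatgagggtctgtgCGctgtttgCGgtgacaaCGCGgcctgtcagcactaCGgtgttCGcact
All 27 CpGs of the stretch were covered, by 34 sites. Means over sites that share a fragment and strand varied widely between libraries. On the minus strand, 7 sites between 12323 and 12395 bp ranged from 19.1% in ENR replicate 3 to 73.7% in ENR replicate 1, and 8 sites between 12261 and 12318 bp ranged from 47.6% in STD replicate 3 to 76.5% in ENR replicate 3. On the plus strand, 5 sites from 12141 to 12175 bp were 45.5%, 43.8% and 40.4% in STD and 46.9%, 66.2% and 61.2% in ENR, without overlap. Going the other way, 7 minus-strand sites from 12174 to 12236 bp averaged 49.0% in STD and 43.3% in ENR, with overlap. The remaining groups of at least 5 sites in the stretch were higher in ENR, with overlap.

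At 3 Nr4a2 sites methylation stood over 25 points higher in ENR. The coding site at 12388 bp (chr2:57111615, minus strand) was 31.7%, 40% and 24% in STD and 79.2%, 58.8% and 52.6% in ENR. The coding site at 12184 bp (chr2:57111819, plus strand) was 29.5%, 23.5% and 43.8% in STD and 50%, 76.5% and 47.6% in ENR. Neither overlapped between the groups. On the opposite strand of the CpG at 12184 bp, however, ENR was lower by a difference of -10.3 points. The intronic site at 14291 bp (chr2:57109712) was 4.17%, 0% and 0% in STD and 45.8%, 50% and 0% in ENR, so that ENR replicate 3 did not differ from STD. All 3 had a limma adjusted p of 0.852.

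Npas4 encodes a transcription factor of the bHLH-PAS family that is induced selectively by neuronal activity and governs the formation of inhibitory synapses. The gene (chr19:4984355-4990316, minus strand) had 29 sites, all between 492 and 945 bp from the start, and none upstream. One was in the 5′ untranslated part, 22 were in the coding part of the first exon and 6 in the first intron. The stretch that holds 25 of the 29 is printed from the start of the coding sequence on (GRCm38, chr19:4989596-4989816, minus strand, 5′ to 3′ along the gene, 500 to 720 bp from the start; chosen after the values were known), with capitals for CpGs with a covered site.
Npas4 exon and intron: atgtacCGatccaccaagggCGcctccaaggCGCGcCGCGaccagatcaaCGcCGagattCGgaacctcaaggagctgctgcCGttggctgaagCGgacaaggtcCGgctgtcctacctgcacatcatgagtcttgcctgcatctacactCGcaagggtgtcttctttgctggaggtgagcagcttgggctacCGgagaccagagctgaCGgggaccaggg
All 15 CpGs of it were covered. None of the 29 sites was at 0% in all libraries.

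Mean methylation of Npas4 was 12.8%, 16.0% and 16.4% in STD and 17.9%, 18.1% and 12.6% in ENR. ENR replicates 1 and 2 were above all STD libraries and ENR replicate 3 was below them, as in Nr4a2. The difference of 1.16 points was within the spread (exact permutation test, two-sided, p = 0.6). It was 0.0355 without STD replicate 1 and 2.96 without ENR replicate 3. The mean of MspI fragment means gave a difference of 3.08, and the median over sites gave -0.969. Sites split almost evenly, 16 lower and 13 higher in ENR. The study also sequenced a bisulfite amplicon of Npas4, and its primers place it at chr19:4989686-4990271, from 45 to 630 bp from the start. The paper reports lower methylation in ENR at several of its CpGs, and more Npas4 transcript in ENR. The amplicon was read from sequenced clones in more mice per group, so the RRBS values are no repeat of it. The RRBS table held 21 sites inside the amplicon, at 13 of its 41 CpGs. These averaged 10.3%, 16.1% and 19% in STD and 17.6%, 17.3% and 12.2% in ENR, a difference of 0.595 points (exact permutation test, two-sided, p = 0.8), with 11 sites lower and 10 higher. On the coding strand the amplicon's 11 sites averaged 17.3% ± 5.59 in STD and 19.5% ± 5.05 in ENR, and on the opposite strand its 10 sites averaged 12.7% ± 3.35 and 11.6% ± 5.16 (SD, n = 3 each).

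Single Npas4 sites separated the groups in both directions. The coding site at 532 bp (chr19:4989784, plus strand) was 7.41%, 19% and 33.8% in STD and 0% in each ENR library. The coding site at 651 bp (chr19:4989665, plus strand) was 4.69%, 0% and 0% in STD and 11.1%, 47.8% and 37.5% in ENR, a difference of 30.6 points. Both had a limma adjusted p of 0.852. The other strand of the same CpG went the opposite way in each case, by 8.72 points at 532 bp and by -2.91 points at 651 bp.

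**Figure D3:**
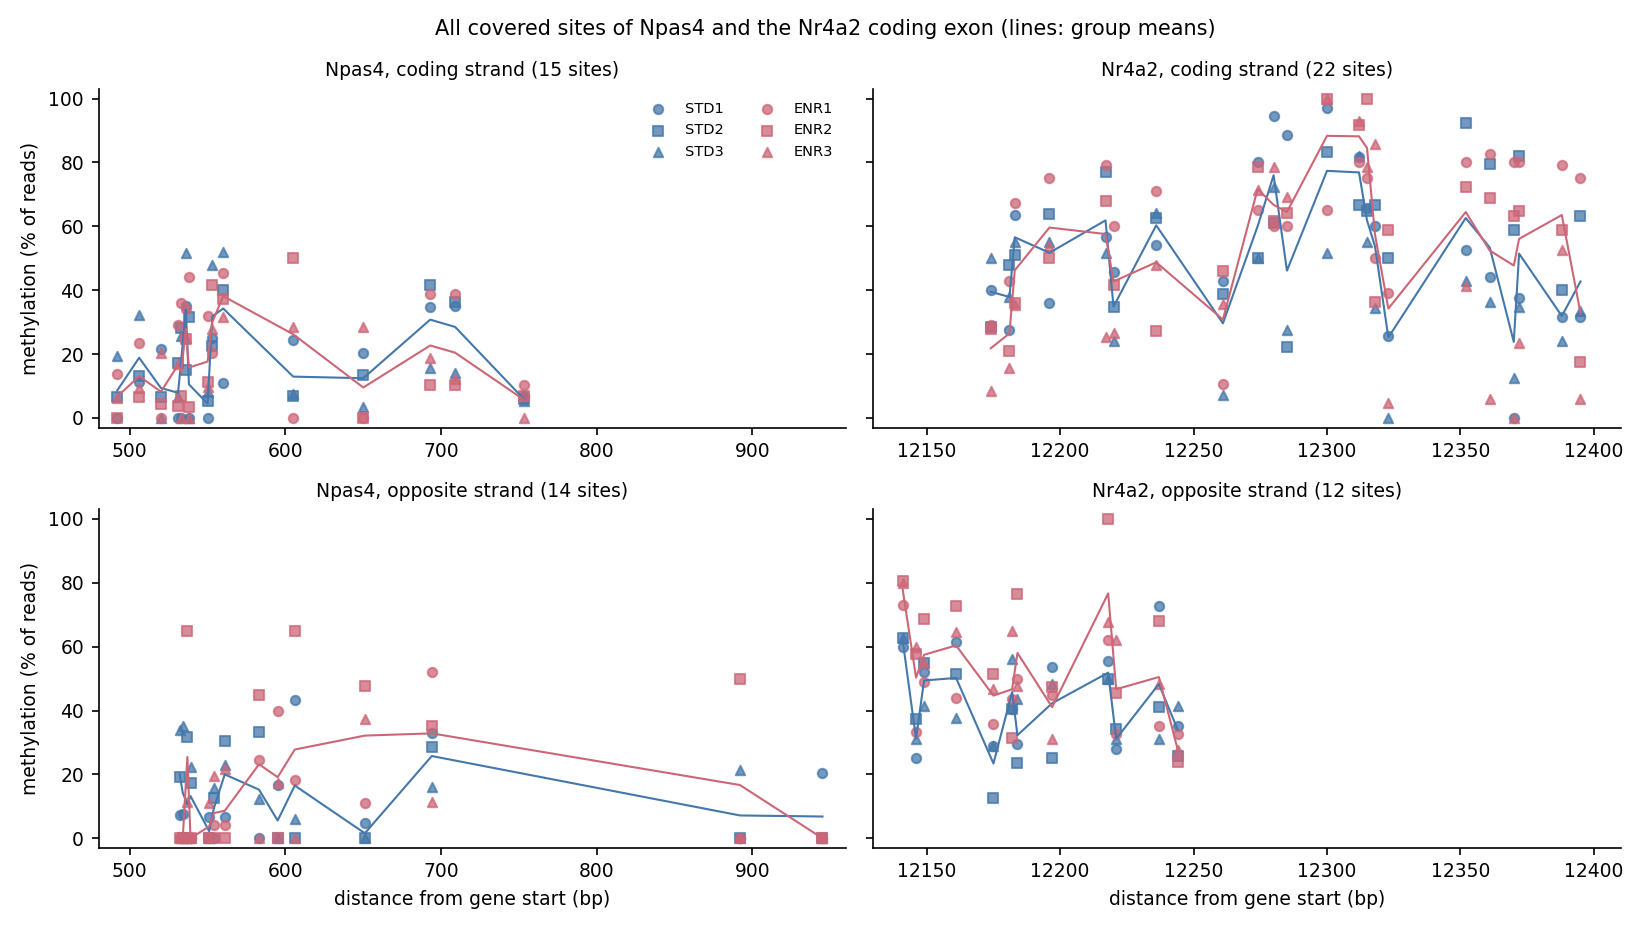
Methylation (percent of reads, vertical axis) of every covered Npas4 site and of the Nr4a2 sites around its coding exon, by strand, against the distance from the gene start in bp; symbols are the single libraries (blue STD, red ENR, with circle, square and triangle for replicates 1, 2 and 3) and lines join group means. Libraries of the same group differ widely at many sites, and the red and blue lines cross repeatedly except on the opposite strand of Nr4a2, where ENR lies above STD at most sites.

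Arc is the exception among the 10 in that its product is no transcription factor. It encodes a synaptic protein that promotes the removal of AMPA receptors from the membrane. Arc (chr15:74669083-74672570, minus strand) had the fewest sites, 27, with means of 2.66%, 2.26% and 3.88% in STD and 5.28%, 2.51% and 2.14% in ENR. The groups overlapped, and the difference of 0.378 points rested on ENR replicate 1, without which it was -0.608. Its 10 sites in the untranslated parts were 1.34%, 0.595% and 2.11% in STD and 2.73%, 2.62% and 2.77% in ENR. The groups did not overlap (exact permutation test, p = 0.1). The separation rested on 1 site, at 1905 bp, which was 11.6%, 0% and 0% in STD and 27.3%, 10% and 20% in ENR. The most methylated site upstream, 945 bp before the start, ranged from 0% in ENR replicates 2 and 3 to 29.4% in ENR replicate 1.

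Site by site, 305 of the 1102 sites were lower in ENR, 304 higher and 493 equal; of all sites 37.2% were lower and 31.9% higher. No site passed limma's adjusted threshold (0% of the 615152 sites that varied in the table), with a smallest adjusted p of 0.852. At an unadjusted p under 0.05 there were 15, or 2.46% of the 609 that varied, against 2.68% in the table. Group means differed by over 25 points at 5 sites, 1 lower and 4 higher in ENR, or 0.454% of the sites; over all sites the share was 1.94%, with 1.23% lower and 0.706% higher. A site that is almost unmethylated has no room for such a difference. Among the 108 sites whose mean was between 12.5% and 87.5%, the 5 made up 4.63%, against 9.01% of such sites in the table (5.73% lower and 3.28% higher). The nearest value outside the limit was exactly 25 points, at an Nr4a1 site 12358 bp from the start that was above 0 only in ENR replicate 2, and the nearest inside was 25.8. The count over 25 points was 9 without STD replicate 1, 9 without STD replicate 2, 10 without STD replicate 3, 16 without ENR replicate 1, 4 without ENR replicate 2 and 13 without ENR replicate 3.

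The values of the groups did not overlap at 12 sites lower and 19 sites higher in ENR, together 2.81% of the 1102 sites against 3.99% of all sites (2.34% lower and 1.65% higher). Egr3, with 12, and Nr4a2, with 8, held most of them. A further 215 sites were above 0 in a single library only. This was so in 47, 44 and 31 sites for STD replicates 1 to 3, and in 29, 29 and 35 for ENR replicates 1 to 3.

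Methylation of a CpG is usually symmetric, so sites were also compared between the 2 strands of the same CpG. Of the 904 CpGs, 198 had both strands covered, and their strands differed by 4.36 points on average within a library. At the 22 such CpGs with a mean over 10%, in Npas4, Nr4a2, Egr3 and Junb, the strands differed by 17.5 points. The direction of the group difference was the same on both strands at 6 of the 22 and opposite at 16. Over all 198 it was the same at 36 and opposite at 49, with no difference on at least 1 strand at the other 113.

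**Figure D4:**
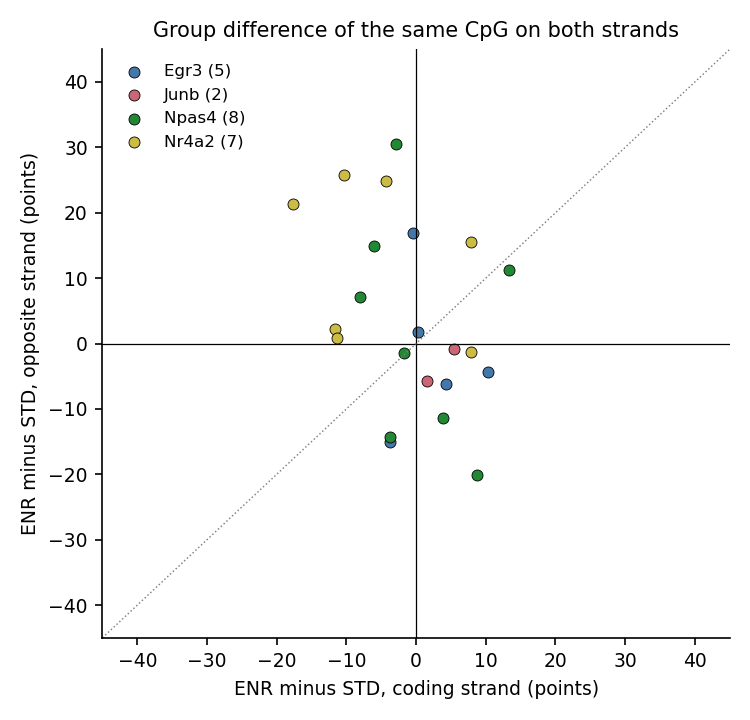
Difference between ENR and STD (percentage points) on the opposite strand, vertical axis, against that on the coding strand, horizontal axis, for the 22 CpGs covered on both strands with a mean over 10%; colours are genes and the dotted line marks equal differences. In the quadrants of opposite sign lie 16 points, against 6 in those of equal sign, and few lie near the line.

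The upstream sequences of the genes were searched for the CRE (TGACGTCA), its core TGACG, the CArG box and the EGR site GCGTGGGCG, on both strands, in the 250 bases before each RefSeq start. A full CRE also contains TGACG. Over 32817 windows the shares were 1.55% for the CRE, 17.7% for TGACG, 1.47% for the CArG box and 0.536% for the EGR site. TGACG was present before at least 1 start of Nr4a1, Nr4a2, Fos, Fosb, Junb, Egr2 and Npas4, the CArG box before 4 of the 5 starts of Egr2, and neither the CRE nor the EGR site was found in these windows. Some of the Egr2 windows overlap and hold the same CArG box. Sequences for Arc, Egr1 and Egr3 were not used here. Covered CpGs in TGACG, 4 in Nr4a1, 2 in Nr4a2 and 1 in Junb, were at 0% in all 6 libraries. In Fos, Fosb, Egr2 and Npas4 the TGACG copies were not covered. The Fos and Fosb windows are printed to show where these copies lie (RefSeq on GRCm38; Fos chr12:85473640-85473889, plus strand; Fosb chr7:19310046-19310295, minus strand; capitals mark TGACG).
Fos upstream: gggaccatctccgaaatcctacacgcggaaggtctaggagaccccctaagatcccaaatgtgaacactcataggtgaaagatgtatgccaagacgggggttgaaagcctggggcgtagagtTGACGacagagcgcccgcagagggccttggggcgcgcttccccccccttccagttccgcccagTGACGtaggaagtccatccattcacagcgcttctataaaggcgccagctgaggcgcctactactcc
Fosb upstream: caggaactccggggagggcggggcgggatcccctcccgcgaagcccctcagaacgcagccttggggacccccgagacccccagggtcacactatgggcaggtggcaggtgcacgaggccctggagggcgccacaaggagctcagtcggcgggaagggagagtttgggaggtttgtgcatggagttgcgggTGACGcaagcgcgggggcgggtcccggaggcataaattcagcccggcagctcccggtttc
None of the 15 CpGs of the Fos window was covered, and 6 of the 19 in the Fosb window were, with site means no higher than 12.7%.

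The wider pathway was described with 44 further genes in 4 lists, of which 43 were covered (Elk1 was not). None passed the adjusted threshold in limma, and 2 had an unadjusted p under 0.05, a rate close to the 3.87% of all genes. The gene mean was lower in ENR in 28 and higher in 15, with a median difference of -0.203 points against -0.209 over all genes. Groups did not overlap in 5 genes, all lower in ENR, or 11.6% of the 43 against 8.41% of all genes in either direction and 5.32% in the lower one. At promoters the split was more even, with 22 of 41 covered genes lower and 19 higher, and 3 without overlap lower and 2 higher, or 12.2% of the 41 against 9.33% of all promoters (5.45% lower and 3.88% higher). The lowest p among these promoters was that of Dusp1, a phosphatase of MAP kinases, with 1.39%, 1.04% and 0% in STD and 5.88%, 11.4% and 6.25% in ENR over 4 sites (limma adjusted p = 0.982). The mean over the whole Dusp1 gene differed by -0.442 points, with overlapping groups.

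The lists are given by role, and no test compared them. The 8 AP-1 relatives were split 4 lower and 4 higher. Batf, a partner of Jun proteins in lymphocytes, had the largest lower value, with 28.3%, 26.3% and 11.7% in STD and 3.62%, 27.6% and 4.75% in ENR over 9 sites, and these overlapped. Jund had the largest higher value, a difference of 1.11 points. Of the 6 relatives and partners of EGR, NR4A and NPAS4 proteins, 4 were lower and 2 higher. Arnt2, the partner with which NPAS4 binds DNA, was 45.1%, 46.7% and 46.8% methylated in STD and 43.4%, 40.5% and 35.8% in ENR. It did not overlap between the groups, with a difference of -6.26 points (limma adjusted p = 1.00), and Egr4 had the largest higher value at 0.585 points.

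Among 23 other activity-induced genes, 15 were lower and 8 higher, and 4 did not overlap, all lower in ENR, a direction in which 5.32% of all genes did not overlap and 57.5% were lower. The 3 with the lowest unadjusted p were Inhba, a subunit of activin, at 3.90%, 5.23% and 3.34% in STD and 2.92%, 2.12% and 2.49% in ENR; Per1, a circadian clock gene, with a difference of -3.45 points over 6 sites; and Nptx2, a secreted pentraxin of excitatory synapses, at -1.45 points. Dusp5, a phosphatase that acts on ERK kinases, was the other, at -2.34 points. Ptgs2, which encodes cyclooxygenase, had the largest higher value of this list, 0.802 points. Of the 6 covered SRF and MEF2 factors 5 were lower and 1 higher, from -0.641 points in Mef2c to 0.158 in Mef2a. All of these had a limma adjusted p of 1.00.

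**Figure D5:**
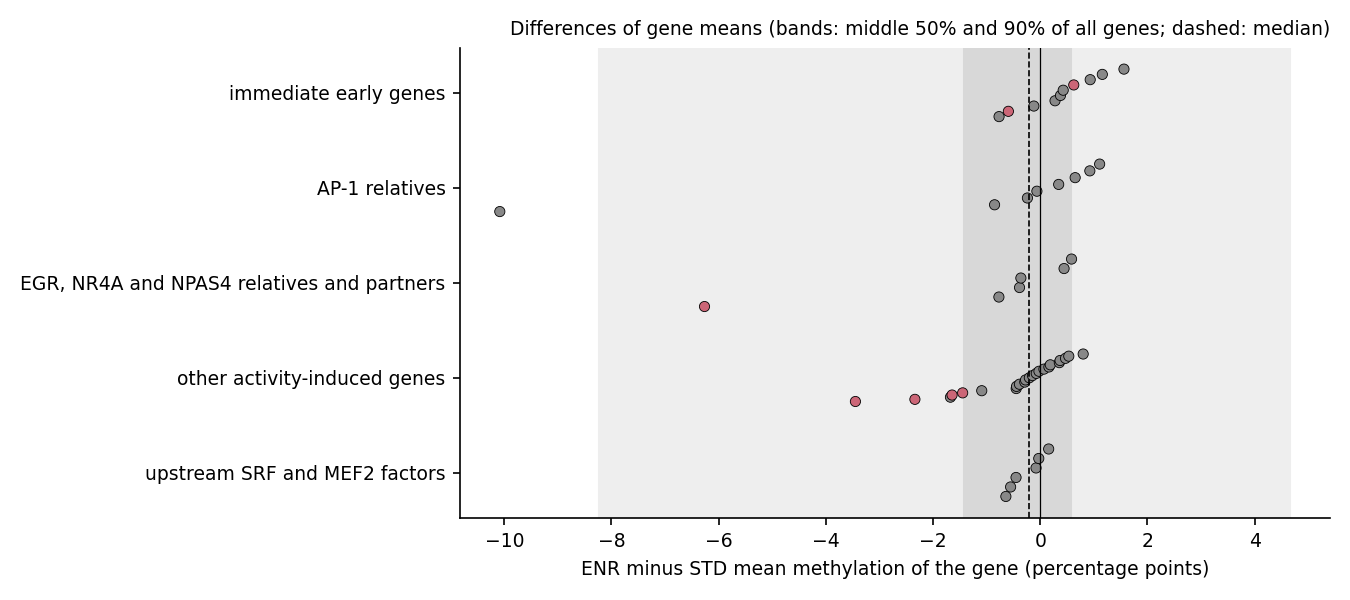
Difference between ENR and STD in the mean methylation of each gene (percentage points, horizontal axis) for the 10 immediate early genes and the 4 lists of the wider pathway; red points are genes whose groups do not overlap, the dark band runs from the 25th to the 75th and the light band from the 5th to the 95th percentile of all genes and the dashed line is their median (-0.209). All 10 immediate early genes lie inside the light band, between -0.768 and 1.56.

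Markers of the cell types that the tissue can hold were read as methylation only, which does not give the makeup of a sample. At promoters of the 5 dentate granule neuron markers (Prox1, Dsp, C1ql2, Calb1 and Stxbp6), the mean over the list was between 1.10% and 1.71% in STD and between 0.873% and 1.22% in ENR. At the 3 covered promoters of astrocyte markers, the list mean was between 15.1% and 16.4% in STD and between 14.4% and 16.3% in ENR. Over whole genes, of which 57.5% were lower in ENR in the genome, astrocyte markers were lower in 5 of 5. Their list mean was 24.9% to 25.8% in STD and 20.7% to 23.7% in ENR, and Slc1a2 differed by only -0.0201 points. Microglia markers were lower in 4 of 5 (51.4% to 61.3% in STD and 44.9% to 62.9% in ENR), interneuron markers in 3 of 5 (11.4% to 24.4% and 10.8% to 14.3%, the highest value resting on the only Sst site, which was 54.8% in STD replicate 2 and at most 2.13% in the other libraries), granule neuron markers in 4 of 5 (8.36% to 9.78% and 8.02% to 10.2%) and oligodendrocyte markers in 3 of 6 (29.0% to 35.2% and 31.1% to 34.5%). None passed the adjusted threshold in limma. Their part in the values of the immediate early genes was not tested.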

How the data were processed

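RRBS reads from 3 STD and 3 ENR dentate gyri were processed by the authors, per the labels with Trim Galore 0.4.0, cutadapt 1.8.1, Bismark 0.16.1 (mm10) and methylKit 1.5.2. They deposited the percent of methylated reads per cytosine and library after a read minimum and removal of the most covered cytosines. Read numbers are not part of these values, so no interval that needs the depth is given and the study's read-count test was not run; 0 columns were left unused.

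Sites were assigned to genes with GENCODE M21. Means over sites (1 kb upstream to gene end, or 1 kb around the start) and single sites were tested with limma 3.58.1 (trend, percent scale, R 4.3.3) over all features that varied, with Benjamini-Hochberg adjustment at 0.05. Single genes and parts of genes were compared by two-sided exact permutation tests. p-values measure the spread between 3 mice a group. On simulated gene means (25544 genes), 200 altered genes were called in 57.5% of cases when shifted by 10 points, 78.5% by 20 and 93.5% by 40, with 9, 13 and 13 false calls; smaller shifts, such as the differences of the 10 genes, were not simulated. Same-numbered libraries correlated by 0.0602, 0.0348 and 0.135 in their deviations and the labels name no pairs, so numbers were not taken as pairs. Between the groups, replicate 3 correlated by -0.0892 to -0.0644 with replicates of other numbers. A batch of the replicate 3 libraries alone was not tested.

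The genes and lists were chosen with earlier results of these data known. Named were all 10 genes, sites over 25 points, the 3 lowest p in each direction among sites without overlap, and, in each wider list, the largest difference in each direction and up to 3 genes without overlap. Other sites, parts of genes, Dusp1 and Dusp5 were chosen after their values were seen. The share of all parts of genes in which the groups did not overlap was not counted, so the parts named without overlap have no background share.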

Additional observations from a re-analysis of the deposited data

How the results depend on the processing

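No gene, promoter or site of the 10 immediate early genes passed the adjusted threshold under any alternative run. One other gene, 1700081H04Rik, passed when gene means were tested as the arcsine of the square root of the fraction (1 gene against 0, adjusted p 0.0392). Of 216 single values under alternatives that kept all libraries, 17 changed direction, and of 174 with a library left out, 12 did; the cause was not tested. Gene differences turned to -0.969 for Npas4 (median over sites), -0.149 for Egr3 (mean of MspI fragment means) and, for Junb, 0.383 (libraries centred) and 0.268 (quantile normalization). Promoter differences turned, within 500 bp of the start, to -1.95 for Npas4, -0.0141 for Fosb, 0.159 for Arc and 0.155 for Egr3. That Npas4 value is of 1 site, at 492 bp, with 0%, 6.58% and 19.4% in STD and 13.7%, 0% and 6.35% in ENR. Around the start of any transcript they turned to -0.496 for Fos, 0.0191 for Junb, 0.488 for Egr3 and 0.484 for Nr4a1. With the median over sites the Npas4 difference turned to -0.969. With libraries centred, promoter differences turned to 0.194 for Junb, 0.309 for Arc, 0.347 for Nr4a1 and 0.00841 for Nr4a2. With a library left out, gene differences ranged from -0.319 to 0.211 in Junb, -0.608 to 0.963 in Arc, -0.170 to 0.958 in Egr1 and -0.198 to 1.47 in Egr3, and promoter differences from -0.147 to 0.534 in Fos, -0.0973 to 0.633 in Fosb, -0.594 to 0.0680 in Junb and -1.06 to 0.432 in Arc. The median promoter difference over the 10 genes (-0.174) was 0.148 around any transcript start, 0.328 with libraries centred and 0 with medians over sites, and -0.227 to 0.0850 with a library left out; the median gene difference (0.403) was 0.905 with libraries centred, 0 with medians over sites and 0.0313 to 0.898 with a library left out. Sites over the limit, 5 at 25 points, were 83 at 10 points, 0 at 40, 13 with group medians and 3 with strands averaged, and 4 to 16 with a library left out. Genes without overlap, 2 (Fosb and Egr2), were 1 with libraries centred, which was Nr4a2 and neither of these, and 0 with medians over sites. The labels name no pairs of same-numbered libraries. With the replicate number as a block, 0 genes, promoters and sites passed, and it changed no call. At an unadjusted p under 0.05, limma with this block counted 1209 genes, 879 promoters and 15810 sites, against 985, 887 and 16498. The unknown read depth and 3 mice a group limit all values.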
